A study of Mus musculus with 19 samples.

Results

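Intracisternal A particle (IAP) elements are endogenous retroviruses of the mouse genome. An intact copy has an internal part, which encodes the proteins of the particle, between 2 long terminal repeats (LTRs), and the LTR carries the promoter and the end signal of the transcript. Recombination between both LTRs of a copy removes the internal part and leaves a solitary LTR, so that LTRs outnumber complete copies. In most tissues IAP LTRs are densely methylated at CpGs and silent, and loss of DNA methylation in the early embryo is known to release IAP transcription.

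The elements described here were all annotated repeats outside genes whose RepeatMasker name contained IAP, without IAPEz-int, the internal part of the most abundant subfamily. The rule found 19255 of 2634743 elements, under 24 of 1234 repeat names. Of these, 11950 elements with 15 names were LTRs and 7305 elements with 9 names were internal parts, all classed as LTR/ERVK. IAPEz-int, with 6085 elements, was kept as the closest comparison, beside 221906 elements of the other ERVK names. A total of 16826 of the IAP elements had at least 1 read in 1 of the libraries.

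Reads on repeats were available for 6 RNA-seq libraries, 2 each of visceral yolk sac endoderm (ysE), visceral yolk sac (VYS) mesoderm and cystic embryoid bodies (EBs). The ysE and mesoderm (A and B) were separated by hand after DispaseII treatment from pooled E9.25 FVB litters, and the mesoderm layer also holds vessels and blood. The cystic EBs were grown for 10 or 15 days (d10 B, d15 B) from JN, a single embryonic stem (ES) cell clone described as XX, of C57Bl/6x129 background. Tissue, culture, strain and sex therefore cannot be told apart in comparisons with cystic EBs. Methylation came from whole genome bisulfite sequencing (WGBS) of CAST×FVB F1 material, CxF and FxC for each tissue: ysE and fetal liver, both of E12.5, and cystic EBs of d15 grown from the clones CF-C2 and FC-A2, both XY. H3K4me3, a histone mark of active promoters, came from 1 ChIP-seq library of whole E12.5 FVB VYS.

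The 6 RNA libraries held 86063967 to 188223399 reads on repeats, of which 65.9% to 79.4% lay on repeats of RNA genes such as rRNA. The ysE marker genes summed to 10841 and 12528 RPKM in ysE, 1205 and 2105 in mesoderm and 147 and 577 in cystic EBs, and the 6 mesoderm markers to 24.3 and 41.4, 655 and 665, and 52.6 and 175. The 4 primitive blood genes summed to 853 and 1020 RPKM in ysE, 43931 and 34240 in mesoderm and 62.6 and 127 in cystic EBs. Cystic EBs also differed between days in cardiac genes, at 8.20 (d10 B) and 221 (d15 B) RPKM, and held the pluripotency markers Pou5f1, Nanog and Zfp42 at a sum of 137 (d10 B) and 84.1 (d15 B) RPKM. Mesoderm A stood apart by the trophoblast gene Prl3d1, at 58.7 RPKM against 0.546 in mesoderm B, and by the most reads on IAP elements of chromosome Y. The other trophoblast markers were low in mesoderm A and B, with Tpbpa at 0.114 and 0.288 RPKM and Elf5 at 0.0490 and 0.0280. The part of these cell types and of mesoderm A in the results below was not tested, and the counts of calls are also given without each library.

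Stretches of 5 LTR names were compared by sequence, and the other names were not. Promoter windows of RefSeq genes (assembly GRCm38.p6, 250 bases before to 50 after the start) overlapped an IAP element by at least 100 bases for 53 of 32851 windows, 42 of long non-coding RNA genes and 11 of protein-coding genes. The 5 stretches below are shown because they cover 3 LTR names whose levels differed between ysE and mesoderm (IAPLTR1_Mm, IAPEY_LTR, IAPEY4_LTR) and 2 of similar name (IAPLTR1a_Mm, IAPEY2_LTR). Each is printed 5′ to 3′ on the strand given, only inside the LTR, with CpGs in capitals.
IAPLTR1_Mm, chr2:151204968-151205244, plus strand, at Gm14149: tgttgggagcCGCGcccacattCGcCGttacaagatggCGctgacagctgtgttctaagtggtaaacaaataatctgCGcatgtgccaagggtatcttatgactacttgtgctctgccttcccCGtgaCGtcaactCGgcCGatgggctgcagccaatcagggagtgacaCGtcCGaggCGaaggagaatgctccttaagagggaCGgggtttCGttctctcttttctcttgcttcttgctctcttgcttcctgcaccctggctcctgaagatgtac
IAPLTR1a_Mm, chr14:123631880-123632140, plus strand, at Gm46490: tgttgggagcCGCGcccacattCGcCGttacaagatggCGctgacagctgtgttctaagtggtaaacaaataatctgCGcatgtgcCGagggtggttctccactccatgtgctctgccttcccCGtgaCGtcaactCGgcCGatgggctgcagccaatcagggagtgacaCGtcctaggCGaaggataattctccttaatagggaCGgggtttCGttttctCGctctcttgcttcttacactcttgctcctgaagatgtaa
IAPEY_LTR, chr13:93198641-93198940, plus strand, at Gm41020: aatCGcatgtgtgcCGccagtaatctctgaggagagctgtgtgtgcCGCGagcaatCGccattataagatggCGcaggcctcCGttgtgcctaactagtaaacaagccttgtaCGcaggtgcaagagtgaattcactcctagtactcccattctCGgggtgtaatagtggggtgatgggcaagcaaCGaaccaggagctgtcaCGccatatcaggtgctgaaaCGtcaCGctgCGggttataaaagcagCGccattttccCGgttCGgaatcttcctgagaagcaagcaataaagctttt
IAPEY2_LTR, chr2:52131488-52131787, plus strand, at Gm52510: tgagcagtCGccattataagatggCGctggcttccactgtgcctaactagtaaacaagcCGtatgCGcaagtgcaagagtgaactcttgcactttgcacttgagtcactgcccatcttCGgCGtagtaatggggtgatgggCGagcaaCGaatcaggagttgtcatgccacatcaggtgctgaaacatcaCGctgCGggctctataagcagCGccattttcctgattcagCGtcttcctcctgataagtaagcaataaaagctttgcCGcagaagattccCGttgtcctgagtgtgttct
IAPEY4_LTR, chr4:3200300-3200530, minus strand, at Gm52720: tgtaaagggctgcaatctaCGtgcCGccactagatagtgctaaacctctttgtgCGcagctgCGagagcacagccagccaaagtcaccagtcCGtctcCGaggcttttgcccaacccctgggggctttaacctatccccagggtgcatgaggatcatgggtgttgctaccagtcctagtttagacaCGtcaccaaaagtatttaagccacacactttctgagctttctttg

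The IAPLTR1_Mm and IAPLTR1a_Mm stretches were 89.7% identical over the shorter of the pair, and IAPEY_LTR and IAPEY2_LTR 72.3%. All other pairs were 52.4% to 59.8% identical. The stretches of IAPLTR1_Mm (277 bases), IAPLTR1a_Mm (261 bases), IAPEY_LTR and IAPEY2_LTR (300 bases each) held 15, 16, 17 and 14 CpGs, and that of IAPEY4_LTR held 7 in 231 bases, the fewest per base of the 5. Of all member windows 60.4% held at least 10 CpGs, against 43.5% of all RefSeq windows. The motif TGACGT, which is contained in the cyclic AMP response element, was present on either strand in 37.7% of member windows and in 7.51% of all windows. It matched 2 times in IAPLTR1_Mm and in IAPLTR1a_Mm (overlapping matches on both strands counted apart), once each in IAPEY_LTR and IAPEY4_LTR and not in IAPEY2_LTR. The TATA box motif TATAAA, searched on both strands, was in 17.0% of member windows and 13.6% of all windows. These matches are a description of the letters only.

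The reads on IAP members were most abundant in ysE. They made up 2.32% and 2.21% of the reads outside RNA-gene repeats in ysE, 1.48% and 1.41% in mesoderm, and 0.967% and 1.28% in cystic EBs, and the 3 ranges did not overlap. Counts of reads over these elements were 283362 to 859350 per library. IAPLTR1_Mm alone held 330496 of the 532734 member reads in ysE A and 149044 of the 344274 in mesoderm A. The median IAP name was lower in ysE than in mesoderm (log2 -0.39). Per length, 5 names stood above the others. As a level per length (CPM, TMM-scaled reads per 1000000 reads on repeats, here per megabase of elements) the mean over the 6 libraries was 5015 for IAPLTR1_Mm, 3512 for IAPA_MM-int, 2042 for IAPEY4_LTR, 1499 for IAPEY4_I-int and 1011 for IAPLTR1a_Mm. The next was IAPLTR2a2_Mm at 178, followed by IAPLTR2_Mm, IAPLTR2b and IAPLTR2a at 162, 139 and 123, and the order ended with IAPLTR3-int at 14.2. The libraries of each neighbouring pair among the first 5 names overlapped, as did those of the 4 IAPLTR2 names, while all 6 libraries of IAPLTR1a_Mm lay above all 6 of IAPLTR2a2_Mm.

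**Figure D1:**
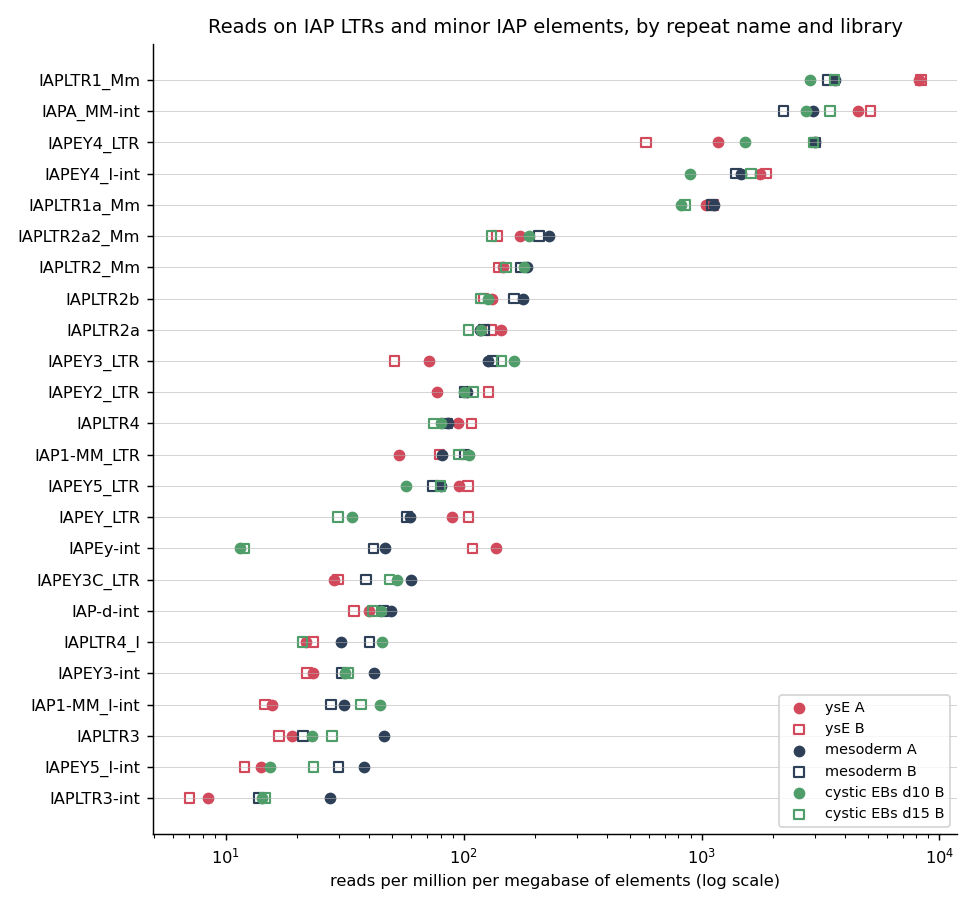
CPM per megabase of elements (log axis) for each of the 24 repeat names, with 1 point per RNA library (ysE A and B, mesoderm A and B, cystic EBs d10 B and d15 B). IAPLTR1_Mm at the top lies at the highest level and IAPEy-int shows the widest gap between ysE and cystic EBs.

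IAPEy-int, the internal part of the IAPEY subfamily, differed most in both comparisons with cystic EBs, while IAPEY4_LTR differed more between ysE and mesoderm. The level of IAPEy-int was 313 and 250 CPM in ysE (A, B), 107 and 95.7 in mesoderm and 26.4 and 27.4 in cystic EBs. All ysE values were above all mesoderm values, which were above all cystic EB values. The log2 fold difference was 1.48 (SE 0.14, adjusted p = 0.0079, edgeR quasi-likelihood test) for ysE over mesoderm, -3.39 (SE 0.16, adjusted p = 9.32e-04) for cystic EBs over ysE, and -1.91 (SE 0.15, adjusted p = 0.0032) for cystic EBs over mesoderm. Its LTR, IAPEY_LTR, followed in the same order. Values were 40.4 and 47.5 CPM in ysE, 26.9 and 26.2 in mesoderm and 15.3 and 13.4 in cystic EBs. The differences for IAPEY_LTR were 0.73 (SE 0.14, adjusted p = 0.024) for ysE over mesoderm and -1.62 (SE 0.15, adjusted p = 0.0024) for cystic EBs over ysE, and -0.89 (SE 0.15, adjusted p = 0.038) for cystic EBs over mesoderm. In ysE B, 2164 reads of IAPEY_LTR lay on 1 element, on chromosome 18, which had 0 reads in ysE A.

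IAPLTR1_Mm, an LTR of IAPEz copies, had 3464 and 3512 CPM in ysE, 1523 and 1420 in mesoderm and 1196 and 1525 in cystic EBs. The ysE values stood apart, and the mesoderm and cystic EB values overlapped. The log2 fold difference was 1.25 (SE 0.14, adjusted p = 0.01) for ysE over mesoderm and -1.36 (SE 0.14, adjusted p = 0.0029) for cystic EBs over ysE. IAPLTR1a_Mm, an LTR of the same length class and 89.7% identical in the stretch shown, had 523 and 561 in ysE, 567 and 554 in mesoderm and 412 and 426 in cystic EBs. It did not pass for ysE over mesoderm (-0.05, SE 0.10, adjusted p = 0.75) and was lower in cystic EBs than in ysE (-0.37, SE 0.10, adjusted p = 0.033). The difference between both LTR names was not tested. The related IAPEz-int itself was at 67605 and 70994 CPM in ysE, 47812 and 43551 in mesoderm and 37180 and 44838 in cystic EBs (ysE over mesoderm 0.60, SE 0.14, adjusted p = 0.035).

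The remaining called names of the ysE and mesoderm comparison were mostly lower in ysE. Of 1190 repeat names tested, 10.8% were higher and 9.58% lower in ysE, and of the 24 IAP names, all tested, 4 were higher and 6 lower. The fourth higher name was IAPA_MM-int (0.91, adjusted p = 0.027; 135 and 152 CPM in ysE against 87.2 and 65.4 in mesoderm). IAPEY4_LTR fell most, with 28.1 and 14.0 CPM in ysE against 72.4 and 72.2 in mesoderm and 36.5 and 71.0 in cystic EBs (log2 -1.78, SE 0.43, adjusted p = 0.04). The other names that were lower were IAPLTR3-int (-1.42), IAPEY5_I-int (-1.39), IAPEY3_LTR (-1.09), IAP1-MM_I-int (-0.97) and IAPEY3-int (-0.68). The median log2 difference was -0.39 over the IAP names and -0.01 over all names.

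The ysE and mesoderm calls rested on few libraries. Without mesoderm A none of the 10 was called, and 4, 6 and 2 were called without mesoderm B, ysE A and ysE B. Of all names 0.333%, 7.58%, 15.6% and 8.57% were called in these fits. IAPEy-int and IAPLTR1_Mm were called in 3 of these 4 fits and had the same direction in each. With library sizes taken from RefSeq transcripts, which moved the median of all names by 0.32, 4 were higher and 3 lower, beside 18.3% and 3.44% of all names. With the replicate letters A and B as a block, 2 IAP names were higher and 1 lower, beside 2.64% and 3.58% of all names. When elements of chromosomes X and Y were left out, IAPLTR3-int and IAPEY3-int lost the call. In mesoderm A 56.1% of IAPLTR3-int reads lay on chromosome Y, against 36.4% in mesoderm B and 19.5% and 19.7% in ysE. Reads on the 5236 member elements of chromosome Y were also 1.43% of member reads in both cystic EB libraries, in which 4 Y genes summed to 0.125 and 0.166 RPKM. Xist, the RNA that coats an inactive X chromosome, was at 0.256 (d10 B) and 0.0980 (d15 B) RPKM in these libraries and at 1.22 to 5.02 in the tissues, and the number of X chromosomes in the line was not tested.

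Cystic EBs fell below ysE at the IAPEY pair, at IAPA_MM-int and at 2 LTRs of IAPEz copies, IAPLTR1_Mm and IAPLTR1a_Mm. The 4 IAPLTR2 names, also LTRs of IAPEz copies, did not pass the test, with log2 differences from -0.30 (IAPLTR2a) to 0.19 (IAPLTR2_Mm). Of all names 17.1% were lower and 16.9% higher in cystic EBs, and of the IAP names 5 were lower and 2 higher. The lower names were IAPEy-int, IAPEY_LTR, IAPLTR1_Mm, IAPA_MM-int (-0.64, adjusted p = 0.048, edgeR quasi-likelihood test) and IAPLTR1a_Mm. IAPA_MM-int lay close to the threshold and lost the call when elements of chromosomes X and Y were left out. With 1 library left out its difference was between -0.76 and -0.49. IAPLTR1a_Mm lost the call with only the 2 groups fitted. The 2 higher names were IAP1-MM_I-int, with 5.74 and 5.36 CPM in ysE, 11.5 and 10.2 in mesoderm and 16.3 and 13.6 in cystic EBs (log2 1.43, adjusted p = 0.0049), and IAPEY3_LTR, with 10.4 and 7.44, 18.5 and 19.3, and 23.6 and 20.9 (log2 1.32, adjusted p = 0.0083). For both, the cystic EB values lay above the mesoderm values, with no call between these groups (adjusted p = 0.25 and 0.59). With library sizes taken from RefSeq transcripts, which shifted the median of all names by -0.31, the calls were 3 higher and 7 lower, beside 6.47% and 25.9% of all names. IAPEy-int, IAPEY_LTR and IAPLTR1_Mm were called in all 4 fits that left out 1 library of these 2 groups. They were the only 3 of the 7 called without cystic EBs d10 B, while 5, 6 and 5 of the 7 were called without d15 B, ysE A and ysE B.

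Few IAP names were called between cystic EBs and mesoderm. Of all names 1.51% were higher and 1.51% lower, and of the IAP names 0 were higher and 2, IAPEy-int and IAPEY_LTR, lower (6 at an unadjusted p under 0.05, edgeR quasi-likelihood test; DESeq2 called 0 higher and 4 lower, beside 5.80% and 5.13% of all names). Without cystic EBs d10 B neither was called, and without any other library of these groups IAPEy-int alone. With elements of chromosomes X and Y left out, IAPEY_LTR lost the call and IAPEy-int kept it. On chromosome Y lay 830 of the 1340 IAPEY_LTR and 304 of the 730 IAPEy-int elements. IAPLTR1_Mm had -0.11 (SE 0.14) and IAPEz-int -0.16 (SE 0.14). The summed other ERVK names moved the opposite way to IAPEy-int, with 14207 and 14254 CPM in ysE, 25375 and 28973 in mesoderm and 56137 and 37112 in cystic EBs, values given as a description with no test of the difference.

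**Figure D2:**
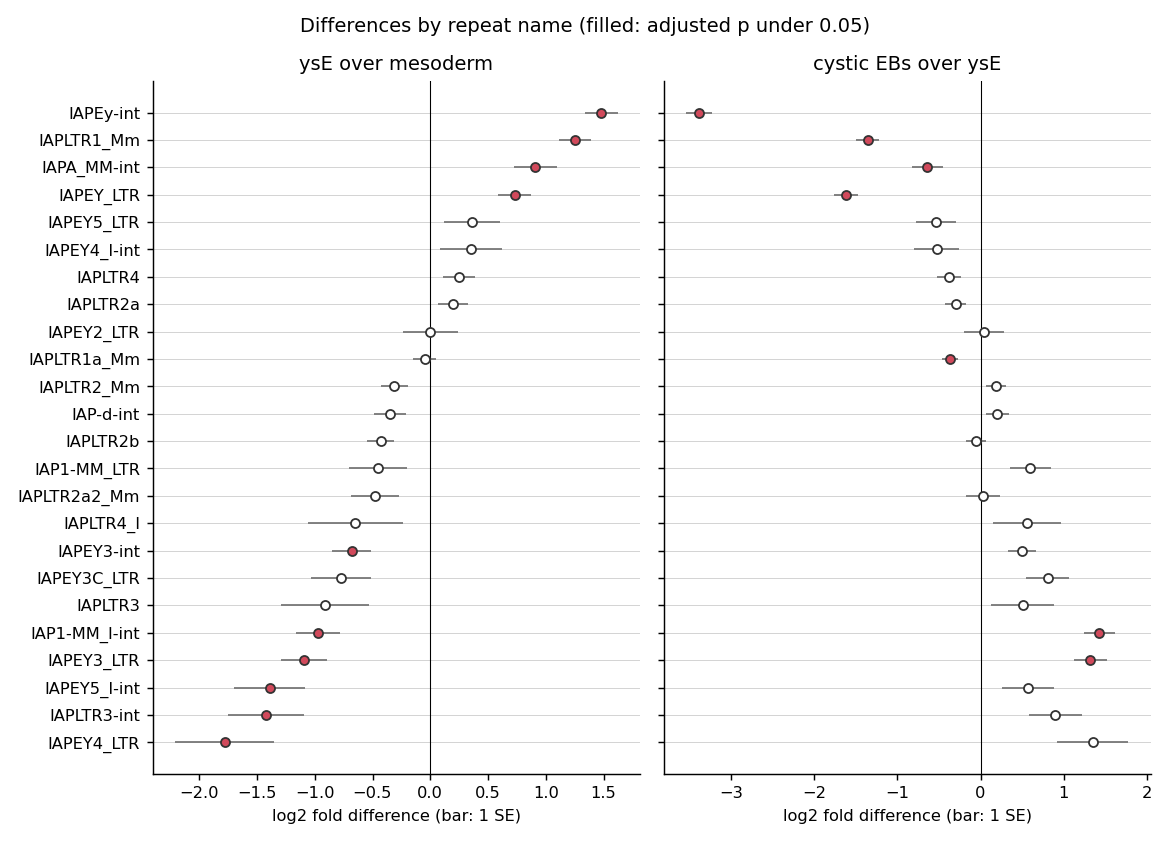
Log2 fold difference by repeat name with 1 SE as bars, for ysE over mesoderm (left) and cystic EBs over ysE (right), with filled points for adjusted p under 0.05. IAPEy-int, IAPLTR1_Mm and IAPEY_LTR are high on the left and low on the right, and IAP1-MM_I-int and IAPEY3_LTR show the opposite order.

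IAPEY4_I-int, whose total differed little between ysE and mesoderm (log2 0.35, SE 0.27, adjusted p = 0.39), drew most of its reads from 2 kinds of element with opposite levels. The name held 464 elements, among them 223 pieces within 200 bp of IAPEz-int, of which 213 were exactly 123 bases long, and 71 elements of at least 1000 bases, and no element was in both sets. The pieces had 550 and 608 CPM in ysE, 80.7 and 87.5 in mesoderm and 81.2 and 91.1 in cystic EBs, which is 6.88-fold higher in ysE than in mesoderm and 6.72-fold higher than in cystic EBs. The long elements had 119 and 105 in ysE, 467 and 436 in mesoderm and 252 and 513 in cystic EBs, which is 4.04-fold and 3.42-fold higher in mesoderm and in cystic EBs than in ysE. The remaining 170 elements were in neither set and had at most 15.4 CPM in any library. In both sets the ysE values did not overlap those of the other groups. The split was chosen after the values were seen and carries no test. IAPEY4_LTR, of which 42 of 77 elements lay within 200 bp of an internal IAP element, all of them IAPEY4_I-int, was also lowest in ysE. How reads that span a piece and the IAPEz-int beside it were counted is not given in the sources used here.

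**Figure D3:**
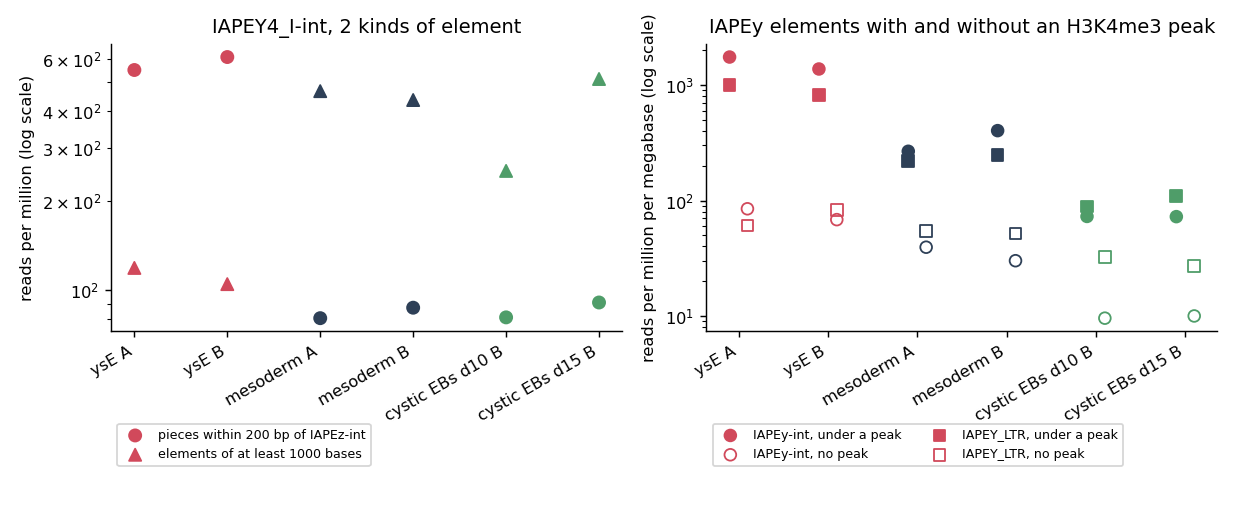
Left, CPM (log axis) per library for IAPEY4_I-int pieces within 200 bp of IAPEz-int (circles) and IAPEY4_I-int elements of at least 1000 bases (triangles). Right, CPM per megabase (log axis) per library for IAPEy-int (circles) and IAPEY_LTR (squares) elements with (filled) or without (open) an H3K4me3 peak, where those under a peak lie above the others in every library.

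The copies of each name differed widely. Of 19255 IAP elements 4110 passed the filter on low counts, out of 239554 of all repeat elements, and passing in a single group was enough, so counts over the tested elements describe these elements only. Of all elements tested 0.960% were higher and 0.283% lower in ysE than in mesoderm, and of the IAP elements 221 were higher and 0 lower (DESeq2 called 1034 and 73, beside 11.3% and 3.18% of all elements). No IAP element was called higher with the replicate block, with only the 2 groups fitted, at a minimum count of 5 or in any fit that left out 1 library, and of all elements 0.0117% were at a minimum count of 5 and 0% in the other fits. Among the higher ones 187 were IAPLTR1_Mm elements and 28 IAPEY4_I-int elements. Of the 1069 IAPLTR1_Mm elements tested, 82.4% had a higher value in ysE, against 46.9% of all elements, and of the 1108 IAPLTR1a_Mm elements 25.0% did. The IAPLTR1_Mm element with the most reads nevertheless went the other way. It lies at chr2:72270362-72270729 and had 475 and 702 reads in ysE, 2466 and 2431 in mesoderm and 1256 and 1895 in cystic EBs.

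For cystic EBs over ysE, 3.40% of all elements were higher and 8.63% lower, and of the IAP elements 18 were higher and 796 lower. In the 4 fits that left out 1 library of these 2 groups, no repeat element at all, IAP or other, was called in either direction. Of the lower ones 552 were IAPLTR1_Mm, 85 IAPEy-int (of 138 tested) and 67 IAPLTR1a_Mm elements. The lowest adjusted p among the named elements was 0.015 (edgeR quasi-likelihood test). It was shared by copies of IAPLTR1_Mm, IAPEy-int and IAPLTR2a2_Mm and by 3 copies of IAPLTR1a_Mm, whose total fell by 0.37 only. The IAPLTR1a_Mm copy at chr8:126110821-126111158 had 577 and 1012 reads in ysE, 317 and 303 in mesoderm and 25 and 27 in cystic EBs (log2 -5.13, adjusted p = 0.015). The copies at chr16:38721138-38721475 and chr17:13242352-13242689 had log2 differences of -4.36 and -4.39. Their counts were nearly equal. The first had 860 and 1384 reads in ysE, 362 and 397 in mesoderm and 68 and 60 in cystic EBs. The second had 879 and 1406, 378 and 404, and 73 and 55. Whether the same reads were counted at both copies was not tested, so they may not be separate observations. Between cystic EBs and mesoderm 0 IAP elements were called higher and 0 lower, as of all elements (0% and 0%, by the edgeR test). DESeq2 called 37 and 170 of the 4110 IAP elements, beside 3.78% and 4.21% of all elements.

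Some names drew many reads from 1 element. For IAPLTR4, 35.0% of all reads lay on the element at chr1:93898924-93899256, which had 1195 and 2429 reads in ysE, 1 and 366 in mesoderm and 104 and 117 in cystic EBs. Left out, the IAPLTR4 difference turned from 0.25 to -1.21 for ysE over mesoderm (adjusted p = 8.14e-03) and from -0.38 to 1.09 for cystic EBs over ysE (adjusted p = 6.31e-03). IAPEY2_LTR had 2444 reads on 1 element of chromosome 18 in ysE B and 2 reads in ysE A. Of 3829 member elements with at least 50 reads, 78 shared all 6 counts with another IAP element within 100000 bp (how reads that map to or span several elements were counted is not given in the sources used here).

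LTRs flanked by an internal IAP element had more reads than those without one. Of 11950 LTR elements 64.6% lay within 200 bp of an internal IAP element. Per megabase, flanked LTRs had 1540 and 1557 CPM in ysE, 884 and 833 in mesoderm and 677 and 801 in cystic EBs, and unflanked LTRs 102 and 117, 111 and 107, and 108 and 98.6. The ratio was 14.1 in ysE, 7.89 in mesoderm and 7.15 in cystic EBs and the unflanked LTRs of the 3 tissues overlapped in level. These pooled values weigh names by their levels and length. Of IAPLTR1_Mm 96.9% of elements were flanked, almost all by IAPEz-int, and of IAPLTR1a_Mm 93.5%. Of IAPEY_LTR 75.7% were flanked, and the partner was IAPEy-int for 62.9% of these. IAPEY3C_LTR was mostly without such a neighbour, with 27.4% flanked. In both ysE libraries IAPEY4_LTR, IAPEY3_LTR, IAPEY5_LTR, IAPLTR1_Mm, IAPLTR1a_Mm and the 4 IAPLTR2 names had more reads per megabase when flanked, while IAPLTR4, IAP1-MM_LTR, IAPLTR3, IAPEY3C_LTR and IAPEY_LTR had fewer. Single elements set part of this. Without the element with the most reads of each name, an alternative chosen after seeing the data, IAPLTR4 turned, with 62.8 and 48.2 CPM per megabase in ysE when flanked and 17.1 and 19.3 when unflanked, and IAPEY2_LTR had more when flanked in both ysE libraries. IAPEY3C_LTR then had more when flanked in ysE A and fewer in ysE B, and the other names kept their order. The pooled ratio rose to 18.8 in ysE, 8.15 in mesoderm and 7.24 in cystic EBs, and pooled unflanked LTRs were at 86.2 and 77.2 CPM per megabase in ysE, below all mesoderm and cystic EB libraries (95.6 to 108).

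**Figure D4:**
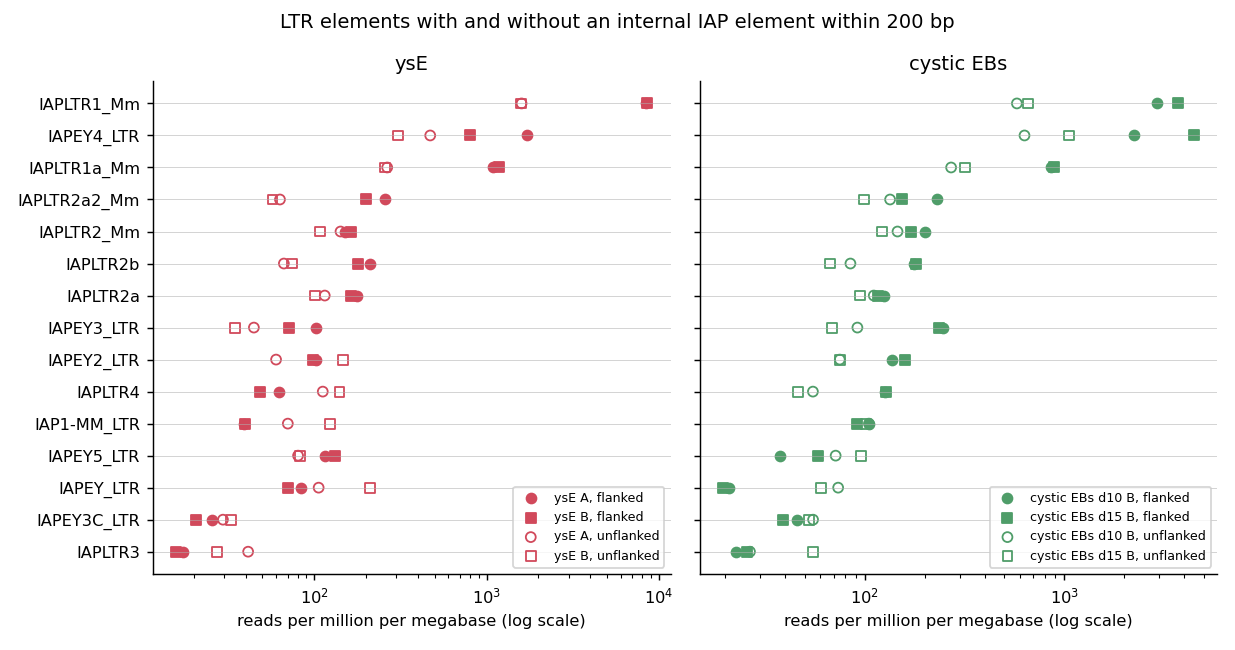
CPM per megabase (log axis) of LTR elements with an internal IAP element within 200 bp (filled) or without (open), by LTR name, in ysE (left) and cystic EBs (right), with 1 point per library. In ysE, flanked elements of IAPLTR1_Mm lie at 8438 and 8556, and unflanked ones at 1597 and 1578.

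CpG methylation of IAP elements was high in all tissues and lowest in ysE. Reads at CpGs in the members were methylated at 81.9% and 77.4% in ysE (CxF, FxC), 87.5% and 88.0% in liver, while cystic EBs had 92.4% and 90.9%, and over all reads of the libraries at 67.8% and 60.1%, 77.6% and 79.8%, and 87.0% and 82.6%. In both sets the ysE values were lower than those of the other tissues. Coverage was low, with 1.80 to 2.21 reads per CpG call, so reads were summed by name. The calls hold no reads on chromosomes X, Y and 19. Chromosome Y held 830 of the 1340 IAPEY_LTR, 779 of the 934 IAPLTR3 and 1279 of the 1754 IAPLTR3-int elements. The methylation of these names therefore leaves out most of their elements. Chromosomes 13 and 15 were left out of the values by name, but not of the pooled percents above. These pooled percents therefore do not rest on the same chromosomes in every library.

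Methylation was lower in ysE than in liver at almost every name. Of 808 names tested 0% were higher and 84.2% lower in ysE, and of the 24 IAP names 0 were higher and 23 lower. The exception was IAPEY5_I-int (73.2% and 61.3% in ysE, 67.6% and 82.2% in liver, adjusted p = 0.21), with 123 to 407 reads per library. The median log2 odds difference was -0.99 over the IAP names and -1.24 over all names and IAPEz-int was also lower in ysE (-0.69, SE 0.19). Leaving out 1 library left 1 (without liver FxC) to 22 (without ysE CxF) IAP names called, with 5 called without liver CxF and 11 without ysE FxC. Of all names 6.81%, 84.7%, 37.6% and 35.8% were called lower in these fits, in the order given.

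The level differed between the LTR names. IAPLTR1_Mm was 86.3% and 83.4% methylated in ysE, 91.7% and 92.1% in liver, while cystic EBs had 96.2% and 95.9%. The other LTRs of IAPEz copies were also at 78.0% or above in ysE. IAPEY_LTR, the LTR of IAPEy-int, was at 67.9% and 59.4% in ysE, 84.3% and 83.8% in liver, while cystic EBs had 88.0% and 86.0%, a difference of -20.4 points between ysE and liver. IAPEY3C_LTR was at 56.0% and 51.8% in ysE and 77.3% and 79.9% in liver. IAPEY4_LTR was the lowest of the IAP names in ysE and liver but had few reads, at 27.3% and 33.3% in ysE (66 and 63 reads), 54.1% and 55.7% in liver, while cystic EBs had 88.2% and 74.6%. Among these LTRs, picked after their values were seen, methylation and RNA level in ysE did not run in 1 order. In ysE, IAPLTR1_Mm, the most methylated of IAPLTR1_Mm, IAPEY4_LTR and IAPEY3C_LTR, had 8247 and 8361 CPM per megabase, IAPEY4_LTR, the least methylated, had 1172 and 584, and IAPEY3C_LTR had 28.4 and 29.6. The RNA and the WGBS came from different strains or clones, for ysE also from different stages, and no test links them.

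In cystic EBs methylation was above that of ysE for every IAP name. Against ysE 97.8% of all names were higher and 0% lower, and all 24 IAP names were higher, also without any 1 library, where 87.4% to 97.3% of all names were. Against liver 25.5% of all names were higher and 0.124% lower, and 5 IAP names were higher and 0 lower: IAPEY4_LTR, IAPLTR1_Mm, IAPLTR1a_Mm, IAPLTR2_Mm and IAPEY4_I-int. For IAPLTR1_Mm the difference from liver was 4.17 points (log2 odds 1.10, SE 0.27, adjusted p = 0.0059). None of the 5 was called without cystic EBs CxF, liver CxF or liver FxC, and in these fits 0% of all names were called higher. The medians of the log2 odds differences were 1.64 (IAP) and 2.09 (all names) against ysE, and 0.65 and 0.75 against liver.

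**Figure D5:**
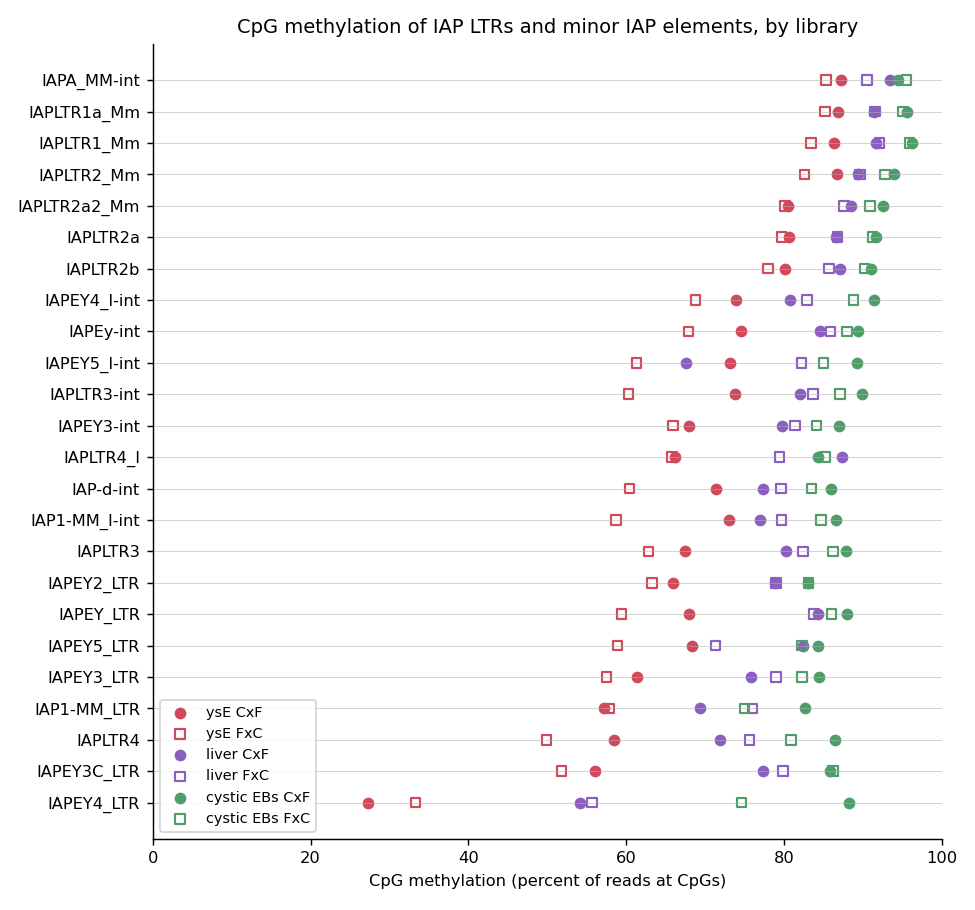
CpG methylation in percent by repeat name, with 1 point per WGBS library (ysE, liver and cystic EBs, each CxF and FxC). IAPLTR1_Mm lies at 86.3% and 83.4% in ysE and IAPEY4_LTR at 27.3% and 33.3%.

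Elements under 50% methylated were found under every IAP name. With at least 5 reads in ysE CxF, 378 of 3462 elements (10.9%) were under 50%, against 33.5% of all repeat elements and 4.51% of IAPEz-int. They were 6 of 7 in IAPEY4_LTR, 47.2% in IAPEY3C_LTR, 37.0% in IAP1-MM_LTR and 36.4% in IAPLTR4, and 4.04% in IAPLTR1_Mm and 2.62% in IAPLTR1a_Mm. Of the other LTRs of IAPEz copies, IAPLTR2_Mm, IAPLTR2a and IAPLTR2b were at 3.23% to 6.48% and IAPLTR2a2_Mm at 11.8%, and the remaining names were at 10.0% or above except IAPA_MM-int (3.45%). Of those covered in ysE FxC, which the choice did not use, 45 of 180 (25.0%; 95% binomial interval 18.9% to 32.0%, exact method, counting error only) were under 50%, against 10.7% of the rest. With the crosses exchanged, chosen in FxC and read in CxF, the share was 16.9% against 6.79%. For the elements chosen in CxF the shares under 50% in liver (CxF, FxC) were 8.56% and 6.06% against 1.78% and 1.70% of the rest, and in cystic EBs 3.78% and 1.24% against 0.668% and 0.879%. With 5 reads an element's percent is imprecise, and elements on chromosomes 13 and 15 were kept here where a library had reads there.

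H3K4me3 peaks of VYS overlapped few IAP elements. Among 22343 peaks, 148 peaks touched 193 of 19255 elements (1.0%; 95% binomial interval 0.866% to 1.15%, exact method, counting error only), against 0.508% of all repeat elements and 0.0986% of IAPEz-int. The interval takes elements as independent although some shared a peak, so it can be too narrow, and it tests no difference between these shares. Where the peak had to cover at least 50% of the element, the shares were 0.483% of IAP and 0.415% of all elements. With only the peaks above the median score the shares were 0.182% and 0.331%, and the IAP share was then below that of all elements. The median score was 180 for the 148 peaks and 863 for all 22343 peaks. IAPEy-int held 48 of its 730 elements under a peak and IAPEY_LTR 37. The IAPEy-int elements under a peak had 39.9% and 39.4% of the ysE reads of the name. Per length they had 20.6 and 20.2 times the reads of the others in ysE, 6.77 and 13.4 times in mesoderm and 7.61 and 7.25 times in cystic EBs. IAPEY4_LTR had 11 of 77 elements (14.3%) under a peak. IAPEY4_I-int elements under a peak had 0.498 and 0.417 times the level of the others in ysE, 3.37 and 3.30 times in mesoderm and 2.50 and 2.93 times in cystic EBs. Of its 2 sets of element described above, 0 of the 223 pieces beside IAPEz-int and 8 of the 71 long elements lay under a peak, so that each ratio also compares these sets.

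The IAP elements with the highest peak scores differed widely in reads. An IAPLTR1_Mm element at chr5:124110598-124110948 had a peak score of 3100. It had 2519 and 4635 reads in ysE, 358 and 409 in mesoderm and 298 and 448 in cystic EBs, a log2 difference of 3.21 for ysE over mesoderm (SE 0.32, adjusted p = 0.043, edgeR quasi-likelihood test). Also at 3100 were an IAPLTR1_Mm element of chromosome 4 (1.38, SE 0.47) and an IAPEY_LTR element of chromosome 17 (3.05, SE 0.53), both not called. An IAPLTR2b element of chromosome 1, at 3100, had 0 to 6 reads per library. An IAPLTR1a_Mm element of chromosome 4, at 2706, had 1 to 13. Of the 221 elements higher in ysE 3 lay under a peak (1.36%), against 2.04% of the 4110 tested, so most of the elements with higher reads in ysE had no peak in this library. The ChIP was from whole VYS at E12.5 and the RNA from E9.25.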

How the data were processed

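RNA-seq libraries were depleted of rRNA with RiboZero, and those of the repeat table were made with dUTP. The authors aligned reads to mm10 with GSNAP and deposited raw read counts per RepeatMasker element outside genes and per RefSeq transcript, and RPKM values, used here for marker genes only. The rule for multi-mapping reads and the use of strand are not given in the sources used here, so copies of near-identical sequence are uncertain, and reference copies can be absent in FVB or CAST. For WGBS the authors deposited, for every CpG call on a strand made by BisSNP, the methylated percent and its read count. For ChIP-seq the authors called peaks against input with MACS 1.4.2 and deposited them with its score, -10 log10 of p. Exon-part counts were not used here.

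Counts were summed by repeat name and tested with edgeR 4.0.16 (R 4.3.3; TMM, filterByExpr, quasi-likelihood test, 3 groups of 2 libraries in 1 fit) by name and by element, with Benjamini-Hochberg adjustment over all names or elements at 0.05. CPM are TMM-scaled reads per 1000000 reads on all repeats. Methylated and unmethylated reads were tested by name in the same way, with a library effect and a methylation effect per tissue, for names with at least 50 CpG reads in every library. Fits were tried on simulated data whose spread was set by hand and not estimated from these libraries. This checked the code and does not bear on how far the calls hold. DESeq2 1.42.0 and limma 3.58.1 served as alternatives, and other values were computed in Python 3.11.15. The p-values rest on the spread between the 2 libraries of each group, shared over the 3 groups of a fit. For RNA of cystic EBs this spread is between d10 B and d15 B of 1 clone, so it includes the difference between days. Replicate letters and crosses were not used as pairs in the main fits. The correlation of deviations was 0.01 between ysE A and mesoderm A over 1190 names, and -0.00 to 0.04 between tissues by cross over 808 names. With 2 libraries a group these values cannot show whether a letter marks shared litters. The 4 Y genes summed to 66.7 RPKM in ysE A and 86.3 in mesoderm A, against 30.6 in ysE B and 48.0 in mesoderm B. Shared litters were not tested. The members, lists and splits were chosen with earlier results of these data known. All 24 names are reported, and single elements were named for the most reads of a name, the lowest adjusted p or the highest peak score.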

Additional observations from a re-analysis of the deposited data

How the results depend on the processing

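IAPEy-int, IAPEY_LTR and IAPLTR1_Mm kept their direction under every alternative run in the ysE and mesoderm and the ysE and cystic EB comparisons, and were called lower in cystic EBs than in ysE in each of them. Other counts moved, and where no value is given for it the cause was not tested. For ysE over mesoderm, lower IAP names were 3 with RefSeq library sizes, 7 without RNA-gene repeats and 8 by DESeq2. They were 9 without the top element of each name and 2 with only the 2 groups fitted. Fewer IAP names were called when 1 library was left out, as given above. IAP names called higher and lower were 2 and 1 with the replicate block (A, B). For cystic EBs over ysE they were 0 to 3 and 3 to 4 without 1 library, and 6 higher by DESeq2, 5 without the top element and 5 with 2 groups. For cystic EBs over mesoderm, lower names were 0 to 1 without 1 library, 4 by DESeq2, 1 without X and Y and 1 with RefSeq sizes. Without the top element IAPLTR4 was reversed, to -1.21 and 1.09. IAP elements called for ysE over mesoderm were 1034 higher and 73 lower by DESeq2, 0 higher at a minimum count of 5, with 2 groups, with the replicate block and without any 1 library, and 4 lower with RefSeq sizes. For cystic EBs over ysE, 101 (DESeq2), 32 (RefSeq sizes), 6 (minimum count 5), 64 (2 groups) and 0 (without 1 library) were higher, and 0 lower without 1 library; over mesoderm DESeq2 called 37 and 170. Methylation names lower in ysE than in liver were 14 by limma, 15 by the mean of element percents and 1 to 22 without 1 library; those higher in cystic EBs than in liver were 3 with calls of at least 3 reads, 1 by limma, 0 by the element mean and 0 to 8 without 1 library. With the cross as replicate block they stayed at 23 and 5. The share of low elements that were low in the other ysE library was 16.9% when chosen in FxC. The H3K4me3 share was 0.483% where a peak covered at least 50% of the element (0.415% of all elements) and 0.182% for peaks above the median score (0.331%). The ratio of flanked to unflanked LTRs in ysE was 18.8 without the top element of each name, against 14.1 with it, and using all chromosomes gave 22, 6 and 24 methylation names (both alternatives were chosen after seeing the data).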
